A study of Bos taurus with 6 samples.

Results

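The pyruvate dehydrogenase complex and the enzymes that switch it were followed as 10 transcripts, picked by gene name from a table of 36577 loci: the kinases PDK1, PDK2, PDK3 and PDK4, the phosphatase subunits PDP1 and PDP2, and the complex subunits PDHA1, PDHB, DLAT and PDHX. Each name matched 1 row, and all 10 passed the filter on low counts that left 15576 genes for testing. RNA came from primary hepatocytes of healthy, fasted, wild-type female calves 1 day old. Every library came from cells under palmitic acid (PA), the common saturated fatty acid of blood fat, at 400 µmol/L. In PA_3-IAA (3 libraries) the cells also received 200 µmol/L indole-3-acetic acid (3-IAA), an indole that arises from tryptophan, and in PA_DMSO (3 libraries) they received the solvent DMSO. Both groups had been plated in a medium with insulin and dexamethasone and then grown in serum-containing medium. Cells without PA were not among these samples, so each value compares 3-IAA with solvent under PA. The labels do not say whether replicates were separate calves or separate dishes, so p-values here reflect no more than the spread among these 6 libraries.

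Pyruvate dehydrogenase sits in the mitochondrial matrix and turns pyruvate into acetyl-CoA, which commits carbohydrate carbon to oxidation or to fat synthesis. The E1 enzyme, built of PDHA1 and PDHB, decarboxylates pyruvate, DLAT (E2) forms the core and carries the acetyl group on lipoate, PDHX tethers the E3 enzyme to that core, and E3 itself (DLD) reoxidises the lipoate. Pyruvate dehydrogenase kinases phosphorylate PDHA1 and stop the enzyme, and the phosphatases PDP1 and PDP2 remove the phosphate. In liver, fasting and fatty acids are known to raise PDK4 and to spare pyruvate for glucose synthesis, and insulin is known to lower it.

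Library totals lay between 16580723 and 22562450 expected counts. On the first principal component of log2 CPM (counts scaled to library size), with 89.9% of the variance over 13115 genes, the PA_3-IAA libraries lay between 30.6 and 31.2. PA_DMSO replicates 1 and 2 lay at -40.2 and -40.1, and PA_DMSO replicate 3 stood apart from them at -12.3. Results are therefore also given without that library. Hepatocyte markers were abundant, with a summed level of 34560 to 39158 TPM (transcript abundance scaled to length and depth) in PA_3-IAA and 24122 to 26921 TPM in PA_DMSO. Of the 11 hepatocyte markers 10 were called higher and none lower, where 25.4% of all genes tested were called higher and 25.8% lower. Of 6 striated muscle markers, a tissue rich in PDK4, none passed the filter, and their sum was 0.17 to 0.24 TPM in PA_3-IAA and 0 to 0.15 TPM in PA_DMSO. The part that differences in cell makeup play in the results was not tested, and in such bulk samples fewer cells of a type and less RNA per cell cannot be told apart.

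With 3-IAA, PDK4, both phosphatases and PDHA1 fell, while PDHB, DLAT and PDHX rose, and the other kinases did not pass the test. PDK4 had the largest change among the 10, a 4.90-fold fall. The phosphatases fell 1.78-fold (PDP1) and 1.47-fold (PDP2), PDHA1 fell 1.48-fold, and the other subunits rose 1.39-fold (PDHB), 1.41-fold (DLAT) and 1.72-fold (PDHX). In edgeR's quasi-likelihood test, at a Benjamini-Hochberg adjusted p under 0.05 over all genes tested, 4 of the 10 were thus lower and 3 higher. Among all genes tested 25.8% were lower and 25.4% higher, so a called change was common in this comparison (51.2% in either direction). The CPM of the groups did not overlap for 8 of the 10 members, the exceptions being PDK1 and PDK3, and for 62.5% of all genes tested. A fall of at least 2-fold was less common, at 5.41% of genes, and PDK4 was the 1 member that had it. Without PA_DMSO replicate 3 the members again numbered 4 lower and 3 higher, where 29.7% and 30.9% of all genes were called. The median size of the log2 fold change was 0.53 over the 10 members and 0.32 over all genes tested, and the median with its sign was 0.04 and 0.00.

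**Figure D1:**
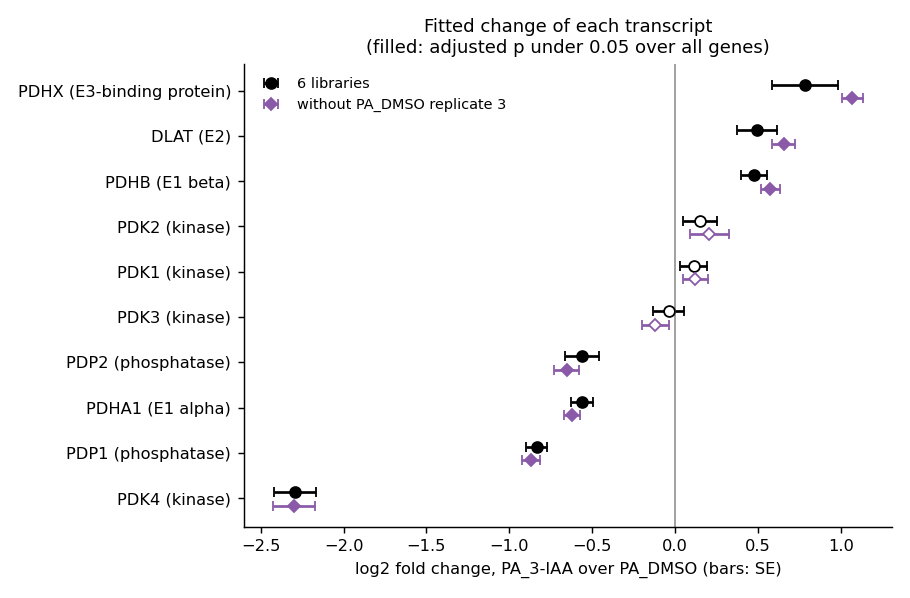
Fitted log2 fold change of each of the 10 transcripts, PA_3-IAA over PA_DMSO, with all 6 libraries (black circles) and without PA_DMSO replicate 3 (purple diamonds). Bars are the SE of the fit, and filled symbols passed an adjusted p under 0.05 over all genes. PDK4 lies at -2.29, PDP1, PDP2 and PDHA1 lie between -0.83 and -0.56, PDHB, DLAT and PDHX lie between 0.48 and 0.79, and PDK1, PDK2 and PDK3 lie near 0.

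PDK4, the kinase that responds most to diet in liver, was found at 1.86, 1.62 and 1.82 TPM in PA_3-IAA replicates 1 to 3 and at 7.39, 9.44 and 8.17 TPM in PA_DMSO replicates 1 to 3. All 3 libraries with 3-IAA lay far below the lowest with solvent, and PA_DMSO replicate 3 lay among its own group. These values rest on 101, 85 and 93 expected counts in PA_3-IAA and 365, 376 and 399 in PA_DMSO. The fitted log2 fold change was -2.29 (SE 0.13, adjusted p = 2.79e-05), and -2.30 without PA_DMSO replicate 3. Of the 15576 genes tested, 114 had a larger fitted fall. In the authors' deposited table the log2 fold change was -2.30 and the gene was marked Down.

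PDK1, a kinase known as a target of hypoxia signalling, was found at 11.4, 11.99 and 12.2 TPM in PA_3-IAA and at 9.92, 11.3 and 10.6 TPM in PA_DMSO. The lowest PA_3-IAA library and the highest PA_DMSO library were almost equal, and in CPM the groups overlapped. Its log2 fold change of 0.11 (SE 0.08, adjusted p = 0.268) left an interval, 2 SE to either side, of -0.05 to 0.27.

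PDK2, the most widely expressed kinase of the family, was found at 6.23, 5.86 and 6.07 TPM in PA_3-IAA and at 5.32, 4.75 and 5.65 TPM in PA_DMSO. Each PA_3-IAA library was above each PA_DMSO library, yet by little, and the test did not call it. The log2 fold change was 0.15 (SE 0.10, adjusted p = 0.238), with an interval of -0.05 to 0.35.

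PDK3 was the most abundant kinase transcript in TPM, at 15.3, 14.8 and 15.1 in PA_3-IAA and at 16.6, 14.8 and 13.1 in PA_DMSO. That order rests on the lengths used for TPM, since CPM were higher for PDK1 than for PDK3 in every library. The PA_3-IAA values of PDK3 fell within the range of the solvent group. Its log2 fold change was -0.04 (SE 0.09, adjusted p = 0.756), with an interval of -0.22 to 0.15, and its sign turned with the scaling and with the library left out. For PDK1, PDK2 and PDK3 the lower bounds of these intervals exclude a fall as large as that of PDK4, whose own interval was -2.54 to -2.04.

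Summed over the 4 kinases, the level was 34.8, 34.2 and 35.2 TPM in PA_3-IAA and 39.3, 40.4 and 37.5 TPM in PA_DMSO. PDK4 made up 5.35%, 4.73% and 5.17% of that sum in PA_3-IAA and 18.8%, 23.4% and 21.8% in PA_DMSO. The sum was lower in each PA_3-IAA library. Without PDK4, the other 3 kinases summed to 33.0 ± 0.39 TPM in PA_3-IAA and 30.7 ± 1.30 TPM in PA_DMSO (SD, n = 3 each), so the sum of the others was not the lower one. By share of TPM, PDK3 was the first kinase in every library, with 43.4% ± 0.58 in PA_3-IAA and 38.0% ± 3.87 in PA_DMSO (SD, n = 3 each). PDK1 followed with 34.1% ± 1.25 and 27.2% ± 1.65. PDK4 ranked last in each PA_3-IAA library and above PDK2 in each PA_DMSO library. Sums and shares over chosen members carry no test.

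**Figure D2:**
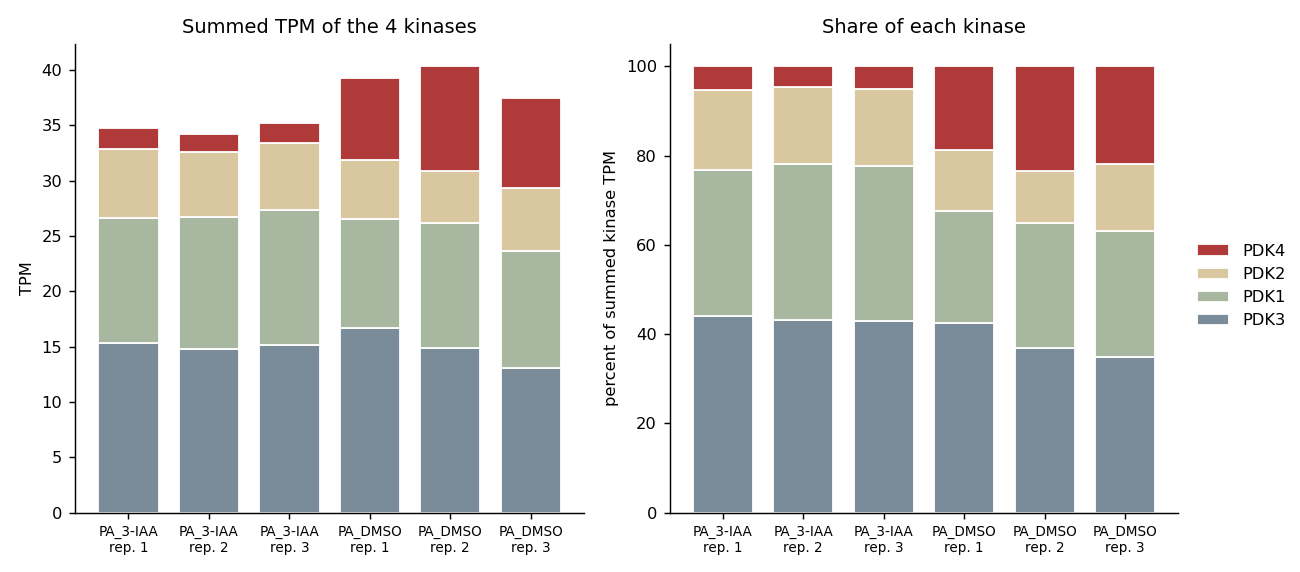
Left, TPM of PDK3, PDK1, PDK2 and PDK4 stacked for each library, PA_3-IAA on the left of PA_DMSO. Right, the same as a percent of the summed kinase TPM. The PDK4 segment is 4.73% to 5.35% of the sum in PA_3-IAA and 18.8% to 23.4% in PA_DMSO.

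The phosphatases, which oppose the kinases, were also lower. PDP1, the calcium-activated catalytic subunit, was found at 14.9, 15.3 and 15.0 TPM in PA_3-IAA and at 26.8, 25.9 and 24.2 TPM in PA_DMSO. The groups were far apart and each was tight. Its log2 fold change was -0.83 (SE 0.06, adjusted p = 6.4e-05), and -0.87 without PA_DMSO replicate 3.

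PDP2, known in rat liver and adipose tissue as the isoform that responds to insulin and feeding, was found at 5.90, 6.0 and 6.77 TPM in PA_3-IAA and at 9.49, 9.40 and 7.63 TPM in PA_DMSO. PA_DMSO replicate 3 was the lowest of its group and nearest to the PA_3-IAA libraries, with no overlap. The log2 fold change was -0.56 (SE 0.10, adjusted p = 0.00156), and -0.65 without that library.

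The summed phosphatase level was 21.3 ± 0.51 TPM in PA_3-IAA and 34.5 ± 2.35 TPM in PA_DMSO (SD, n = 3 each), and PDP1 made up 70.8% ± 1.65 of it in PA_3-IAA and 74.4% ± 1.42 in PA_DMSO. The ratio of summed kinase to summed phosphatase TPM was 1.67, 1.6 and 1.62 in PA_3-IAA and 1.08, 1.14 and 1.18 in PA_DMSO. It was thus higher in every PA_3-IAA library although PDK4 was lower there, and the phosphatase sum differed by -13.2 TPM where the kinase sum differed by -4.31 TPM. The ratio differed by 0.50, and by 0.38 with counts divided by the deposited length. PDPR, the regulatory subunit of the phosphatase and not one of the 10, was found at 12.7, 11.7 and 11.5 TPM in PA_3-IAA and at 10.9, 9.46 and 9.30 TPM in PA_DMSO. It rose by 0.23 (log2, SE 0.07, adjusted p = 0.0255). That call was lost in DESeq2 (adjusted p = 0.0596) and without PA_DMSO replicate 2, PA_3-IAA replicate 1 or PA_3-IAA replicate 2 (adjusted p = 0.0876, 0.0901 and 0.0759).

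The subunits of the E1 enzyme moved in opposite directions. PDHA1, the X-linked catalytic subunit that the kinases phosphorylate, was found at 31.5, 31.8 and 31.0 TPM in PA_3-IAA and at 47.2, 45.3 and 40.7 TPM in PA_DMSO. The PA_3-IAA libraries were nearly identical and lay below all 3 with solvent. Its log2 fold change was -0.56 (SE 0.07, adjusted p = 0.000182), and -0.62 without PA_DMSO replicate 3. PDHA1 was the member with fractional expected counts, so some of its reads were divided among loci. The testis form PDHA2 and an unnamed locus similar to PDHA1 were both listed at 0 counts in all 6 libraries.

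PDHB, its partner in the E1 tetramer, was found at 72.3, 71.1 and 71.3 TPM in PA_3-IAA and at 46.5, 45.9 and 55.5 TPM in PA_DMSO. Again the PA_3-IAA libraries were tight and apart from the solvent group, with PA_DMSO replicate 3 closest to them. The log2 fold change was 0.48 (SE 0.08, adjusted p = 0.00093), and 0.58 without that library. The PDHA1 to PDHB ratio of TPM was 0.44, 0.45 and 0.44 in PA_3-IAA and 1.01, 0.99 and 0.73 in PA_DMSO. In TPM, PDHA1 was thus the lesser transcript in all 3 PA_3-IAA libraries, and both were near parity in PA_DMSO replicates 1 and 2. That order rests on the lengths used for TPM. CPM, which are not scaled to length, were higher for PDHA1 than for PDHB in every library.

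DLAT, the acetyltransferase core, was found at 16.8, 18.4 and 18.4 TPM in PA_3-IAA and at 11.2, 10.1 and 14.6 TPM in PA_DMSO. No solvent library reached the PA_3-IAA range, and PA_DMSO replicate 3 came nearest. Its log2 fold change was 0.49 (SE 0.12, adjusted p = 0.00844), and 0.66 without PA_DMSO replicate 3.

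PDHX, the E3-binding protein, was found at 38.5, 38.0 and 40.2 TPM in PA_3-IAA and at 18.5, 17 and 29.2 TPM in PA_DMSO. Its coefficient of variation was 3.01% in PA_3-IAA and 30.8% in PA_DMSO, the widest of the 10 in the solvent group, where PA_DMSO replicate 3 was far above the other libraries. The log2 fold change was 0.79 (SE 0.20, adjusted p = 0.0173), and 1.07 (SE 0.06, adjusted p = 5.92e-15) without that library. Most of the spread within PA_DMSO came from that library, so the smaller SE and adjusted p without it reflect its removal. With no filter on low counts PDHX missed the threshold (log2 0.79, adjusted p = 0.0742). The PDHX to DLAT ratio of TPM was 2.29, 2.07 and 2.18 in PA_3-IAA and 1.66, 1.69 and 2.0 in PA_DMSO, a difference of 0.40 that became 0.61 with counts divided by the deposited length. DLD, the E3 enzyme that pyruvate dehydrogenase shares with its sister complexes, was the most abundant subunit, at 82.1, 79.4 and 83.5 TPM in PA_3-IAA and at 76.9, 73.4 and 74.3 TPM in PA_DMSO. It was not called (log2 0.06, SE 0.05, adjusted p = 0.341), except with scaling by library total (log2 0.14, adjusted p = 0.0491).

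**Figure D3:**
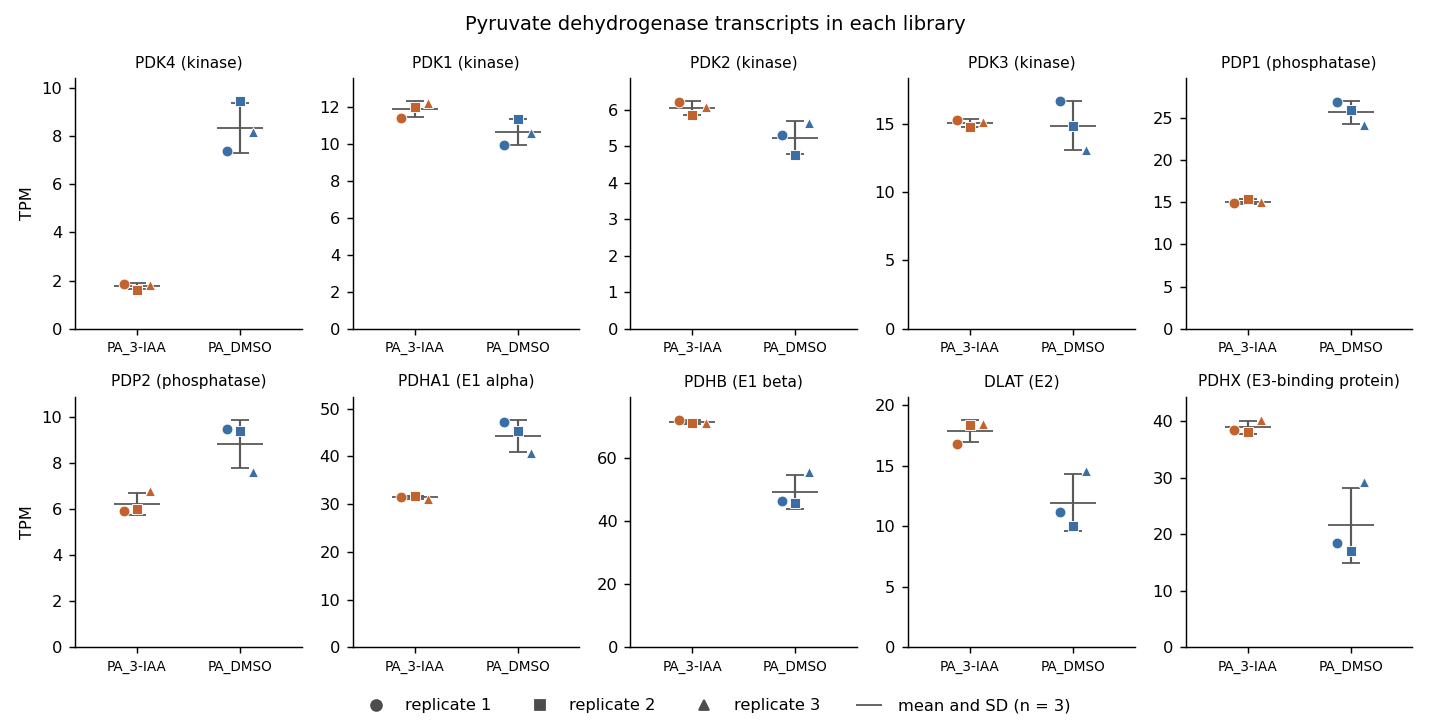
TPM of each transcript in each library, PA_3-IAA left of PA_DMSO, every axis starting at 0. Symbols are the replicates, and the grey line and bars are the mean and SD of 3 libraries. PDK4, PDP1, PDP2 and PDHA1 are lower in all PA_3-IAA libraries, and PDHB, DLAT and PDHX are higher. The triangle of PA_DMSO replicate 3 lies toward the PA_3-IAA values for PDP2, PDHA1, PDHB, DLAT and PDHX, and less so for PDP1.

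Per transcript length, the order of the 10 in PA_3-IAA was PDHB (71.6 ± 0.61 TPM), PDHX (38.9 ± 1.17), PDHA1 (31.4 ± 0.37), DLAT (17.9 ± 0.92), PDP1 (15.1 ± 0.25), PDK3 (15.1 ± 0.27), PDK1 (11.8 ± 0.44), PDP2 (6.22 ± 0.48), PDK2 (6.05 ± 0.19) and PDK4 (1.77 ± 0.13 TPM, SD, n = 3). Neighbours in this order whose ranges overlapped were PDP1 with PDK3 and PDP2 with PDK2. In PA_DMSO the order was PDHB (49.3 ± 5.40 TPM), PDHA1 (44.4 ± 3.35), PDP1 (25.6 ± 1.34), PDHX (21.6 ± 6.65), PDK3 (14.9 ± 1.77), DLAT (11.9 ± 2.37), PDK1 (10.6 ± 0.70), PDP2 (8.84 ± 1.05), PDK4 (8.33 ± 1.03) and PDK2 (5.24 ± 0.46 TPM, SD, n = 3). There the ranges overlapped between PDHB and PDHA1, PDP1 and PDHX, PDK3 and DLAT, DLAT and PDK1, and PDP2 and PDK4. PDHX and DLAT stood higher in the order with 3-IAA, PDHA1 and PDP1 with solvent, and PDK4 was last with 3-IAA and above PDK2 with solvent. Among all genes tested, PDK4 lay at percentile 20.1 of mean TPM in PA_3-IAA and 46.8 in PA_DMSO.

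The position of PA_DMSO replicate 3 differed between members. On the log2 CPM scale from the mean of PA_DMSO replicates 1 and 2 (0%) to the mean of PA_3-IAA (100%), it lay at 1.30% for PDK4 and 13.4% for PDP1. It lay at 29.3% for PDHA1, 45.8% for PDP2, 46.6% for PDHB, 66.8% for DLAT and 67.3% for PDHX. The median over the 7978 called genes was 34.9%. The library was thus close to its own group for PDK4 and PDP1, and nearer to PA_3-IAA than to its own group for DLAT and PDHX.

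**Figure D4:**
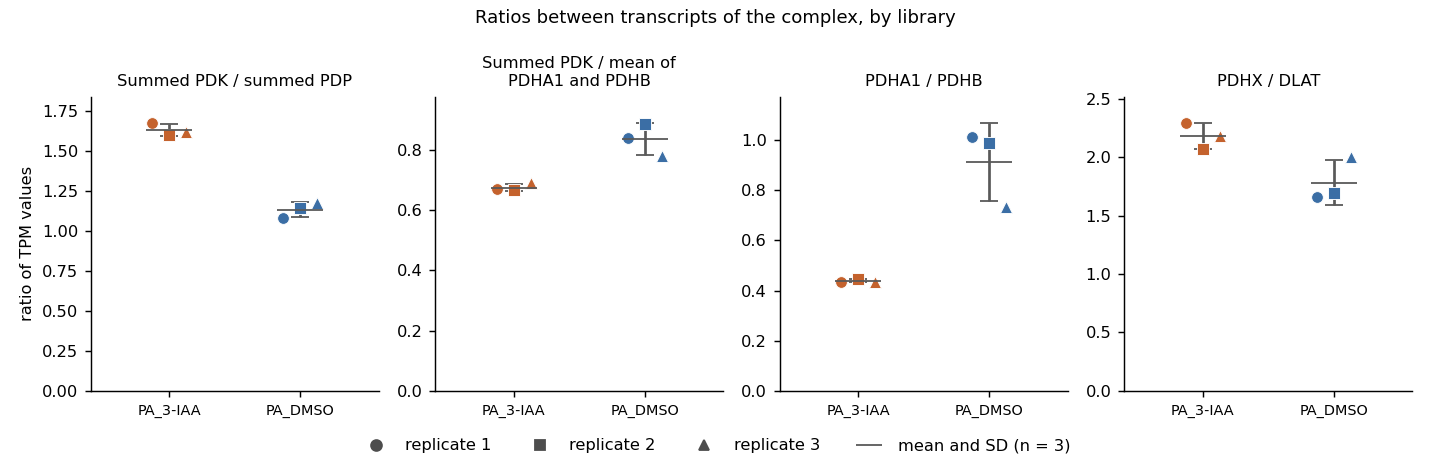
Ratios of TPM values in each library, PA_3-IAA left of PA_DMSO, with mean and SD of 3 libraries. From left to right, summed kinases over summed phosphatases (PA_3-IAA 1.6 to 1.67, PA_DMSO 1.08 to 1.18), summed kinases over the mean of PDHA1 and PDHB (0.67 to 0.69 and 0.78 to 0.89), PDHA1 over PDHB (0.44 to 0.45 and 0.73 to 1.01) and PDHX over DLAT (2.07 to 2.29 and 1.66 to 2.0).

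Relative to the mean of PDHA1 and PDHB, the summed kinase TPM was 0.67, 0.67 and 0.69 in PA_3-IAA and 0.84, 0.89 and 0.78 in PA_DMSO. Relative to this mean of PDHA1, which fell, and PDHB, which rose, kinase transcripts were thus lower with 3-IAA. Relative to phosphatase transcripts they were higher. Against PDHA1 alone the direction was the opposite. The kinase sum (34.2 to 35.2 TPM) lay above PDHA1 (31.0 to 31.8 TPM) in every PA_3-IAA library. In every PA_DMSO library the kinase sum (37.5 to 40.4 TPM) lay below PDHA1 (40.7 to 47.2 TPM). Such orders between genes rest on the lengths used for TPM. All of these values compare transcripts, and neither protein nor phosphorylation was measured.

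Of 10099 named genes with a mean CPM of at least 5, the 5 whose log2 CPM over the 6 libraries, centred on each gene's mean, lay nearest to PDK4 by Euclidean distance were KLF11, CXCL8, PLIN2, GADD45A and IFRD1. KLF11, a Krüppel-like transcription factor, was the nearest, at a distance of 0.33, and fell 4.80-fold. It was found at 1.39, 1.18 and 1.75 TPM in PA_3-IAA and at 6.26, 7.83 and 5.94 TPM in PA_DMSO. The lipid droplet coat protein PLIN2 (distance 0.49), the chemokine CXCL8 (0.46), the growth arrest gene GADD45A (0.50) and IFRD1 (0.51) fell 5.42-fold, 4.43-fold, 4.44-fold and 4.95-fold. The measure of likeness used 6 libraries, so it mainly finds genes with a fall of the same size.

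The genes around pyruvate dehydrogenase were described in 7 lists. The counts called in each are to be read beside the shares over all genes tested, 25.4% higher and 25.8% lower. In the list of pyruvate entry and other pyruvate enzymes, 5 of 15 tested members were lower and 3 were higher (median log2 fold change 0.05). MPC1, a subunit of the mitochondrial pyruvate carrier, was found at 118.9, 130.6 and 122.4 TPM in PA_3-IAA and at 203.3, 200.4 and 170.2 TPM in PA_DMSO, and fell by 0.72 (log2, SE 0.08, adjusted p = 0.000153). Its partner MPC2 did not pass the test (log2 0.10, adjusted p = 0.277) and was called higher on log2 TPM (log2 0.25, adjusted p = 0.0194 with a pseudocount of 1). Whether the 2 subunits differed in their change was not tested.

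PC, pyruvate carboxylase, which sends pyruvate to oxaloacetate for glucose synthesis, was found at 18.0, 17.03 and 19.6 TPM in PA_3-IAA and at 33.2, 34.2 and 28.3 TPM in PA_DMSO. It fell 1.87-fold (log2 -0.90, SE 0.09, adjusted p = 8.68e-05). The alanine aminotransferase GPT fell 2.11-fold and the monocarboxylate transporter SLC16A1 1.40-fold, while the malic enzyme ME1 rose 1.29-fold. GPT rested on few expected counts, 23, 16 and 18 in PA_3-IAA and 40, 30 and 31 in PA_DMSO. Over the alternatives its log2 fold change ran from -1.19 to -0.55. LDHA, which makes lactate from pyruvate, was at a fitted log2 fold change of 0.05 (adjusted p = 0.638, SE 0.08), which turned to -0.02 without PA_DMSO replicate 1 and -0.01 without PA_3-IAA replicate 2. In this list 1 member was higher without PA_DMSO replicate 2 or any single PA_3-IAA library.

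The sister complexes for other 2-oxoacids share the E3 enzyme, and the branched-chain complex has a kinase and a phosphatase of its own. Of the 8 that were tested, 3 were lower and 1 was higher (median -0.16). PPM1K, the phosphatase of the branched-chain complex, was found at 16.9, 15.9 and 15.1 TPM in PA_3-IAA and at 51.3, 46.5 and 30.6 TPM in PA_DMSO, and fell 2.84-fold (log2 -1.51, SE 0.19, adjusted p = 0.00125). The E1 subunits of that complex also moved in opposite directions: BCKDHA, the alpha subunit, fell 1.22-fold (adjusted p = 0.00586) and BCKDHB, the beta subunit, rose 1.42-fold (adjusted p = 0.00317). Without PA_DMSO replicate 3, 5 members of the list were lower.

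Of 13 genes for the making and attachment of lipoate, the cofactor of DLAT, 5 were higher and 3 were lower (median 0.15). NFU1 and BOLA3, which help supply iron-sulfur clusters to the lipoate synthase, rose 1.39-fold and 1.36-fold, and ISCA1 fell 1.17-fold. BOLA3 was not called without PA_DMSO replicate 1 or 2 (adjusted p = 0.0517 and 0.0564). Leaving out PA_DMSO replicate 1 left 1 gene higher, and leaving out PA_DMSO replicate 2 or PA_3-IAA replicate 3 left 2. Leaving out PA_DMSO replicate 2, PA_3-IAA replicate 1 or PA_3-IAA replicate 2 left 1 gene lower.

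The citrate cycle, which takes up the acetyl-CoA, had 7 of its 15 genes higher and 1 lower (median 0.17). With single libraries left out, 5 to 8 were higher and 1 was lower. IDH3B, a subunit of isocitrate dehydrogenase, rose 1.59-fold and SDHC, a subunit of succinate dehydrogenase, 1.29-fold. Citrate synthase (CS), which joins acetyl-CoA to oxaloacetate, was the member that fell, 1.36-fold, with 29.1, 30.3 and 28.3 TPM in PA_3-IAA and 38.3, 40.2 and 36.0 TPM in PA_DMSO. SIRT3, the mitochondrial deacetylase named in the study's title, for which PDHA1 is a known substrate in human cells, rose 2.71-fold (adjusted p = 0.000596).

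Among transcription factors and coactivators known to act on PDK genes, 7 of the 15 that were tested were lower and 6 were higher (median 0.20). The coactivator PPARGC1A, which raises PDK4 with its partner ESRRA, fell 3.53-fold (log2 -1.82, SE 0.17, adjusted p = 7.2e-05). It was found at 0.41, 0.41 and 0.49 TPM in PA_3-IAA and at 1.55, 1.75 and 1.16 TPM in PA_DMSO. The PA_3-IAA values rested on 38, 37 and 35 expected counts, and the log2 fold change ran from -1.93 to -0.78 over the alternatives. The nuclear receptor ESRRA itself was found at 16.7, 15.3 and 16.3 TPM in PA_3-IAA and at 29.5, 28.4 and 26.4 TPM in PA_DMSO, a 1.83-fold fall (adjusted p = 6.4e-05). PPARD and FOXO3 fell 1.46-fold and 1.30-fold. RXRA, STAT5A and STAT5B were called higher (log2 0.31, 0.36 and 0.25), RXRA and STAT5B not without some single libraries. The coactivator PPARGC1B was not called (log2 0.85, adjusted p = 0.0914). It was called higher with a block for the replicate number and without PA_DMSO replicate 3. RXRA, STAT5A, STAT5B and PPARGC1B were named after their values were seen. Whether any factor of this list had a part in the fall of PDK4 was not tested. The fatty acid receptor PPARA and the insulin-restrained factor FOXO1, both known activators of PDK4, were called higher by 0.24 and 0.20 (log2, adjusted p = 0.0241 and 0.0336).

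Both of these calls changed with the method and with single libraries. PPARA missed the threshold on log2 TPM (adjusted p = 0.12 and 0.117 with a pseudocount of 1 and 0.1), and FOXO1 missed it in DESeq2 (adjusted p = 0.0803). PPARA was not called without PA_DMSO replicate 2, PA_3-IAA replicate 1 or PA_3-IAA replicate 3 (adjusted p = 0.0832, 0.0712 and 0.106). FOXO1 was called without PA_DMSO replicate 3 or PA_3-IAA replicate 2 and lost without PA_DMSO replicate 1, PA_DMSO replicate 2, PA_3-IAA replicate 1 or PA_3-IAA replicate 3 (adjusted p = 0.0824, 0.104, 0.0573 and 0.141). In the whole list 2 genes were higher without PA_DMSO replicate 2 or PA_3-IAA replicate 3, and 3 were higher without PA_3-IAA replicate 1. NR0B2, an orphan receptor that represses other nuclear receptors, had the largest rise of the list (5.96-fold, and 13.1-fold without PA_DMSO replicate 3, named after its values were seen), at 5.99, 4.37 and 4.88 TPM in PA_3-IAA and 0.37, 0.36 and 1.64 TPM in PA_DMSO.

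PDK4 belongs to the genes that fatty acids induce through PPARA, and 14 other such genes were tested. Of these 6 were higher and 4 were lower (median 0.32), so called genes of the list lay on both sides of 0. Without PA_DMSO replicate 3, 9 were higher and 4 were lower. PLIN2, the hormone FGF21 and the thioredoxin-binding protein TXNIP fell 5.42-fold, 9.76-fold and 1.79-fold. FGF21 rested on few expected counts in PA_3-IAA (19.3, 9.82 and 19.9, against 147.1, 139.6 and 114.1 in PA_DMSO). CPT1A, which admits fatty acids to mitochondria, was the other gene that fell (named after its values were seen), with 31.0, 27.9 and 29.9 TPM in PA_3-IAA and 40.9, 37.2 and 39.3 TPM in PA_DMSO.

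**Figure D5:**
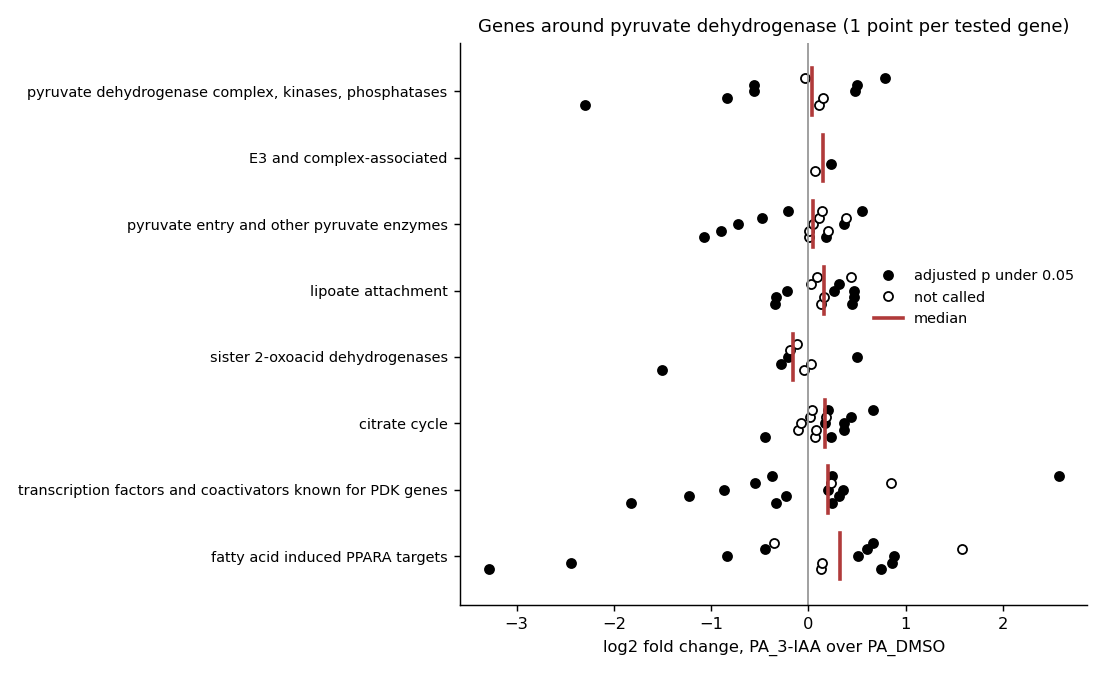
Fitted log2 fold change, PA_3-IAA over PA_DMSO, of each tested gene in the 10 members (top) and in the 7 lists around them. Filled points passed an adjusted p under 0.05 over all genes tested, and red lines are medians. The medians lie between -0.16 and 0.32, and within each of the larger lists points lie on both sides of 0.

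The authors' deposited table lists all 10 members, with the same sign as here for each. It marks PDK4 and PDP1 as Down, PDHX as Up and the other 7 as Stable. The smallest size of change marked Up or Down anywhere in that table was 1.5-fold, and PDHA1 and PDP2, whose log2 fold changes there were both -0.57, were marked Stable with adjusted p-values of 8.46e-10 and 3.9e-05. PDHB and DLAT were marked Stable as well, with log2 fold changes of 0.47 and 0.49 in the authors' deposited table.

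Markers of other liver cells were measured beside these results. Their counts, too, stand beside 25.4% of all genes tested called higher and 25.8% called lower. Endothelial markers summed to 59.1 to 67.1 TPM in PA_3-IAA and 33.5 to 51.2 TPM in PA_DMSO, with 4 of 8 called higher and 1 lower (3 to 6 higher with single libraries left out). Macrophage markers summed to 54.9 to 65.5 TPM in PA_3-IAA and 41.0 to 45.1 TPM in PA_DMSO, with 3 of 6 higher and none lower (1 higher without PA_3-IAA replicate 1). Stellate cell and fibroblast markers summed to 2224 to 2312 TPM in PA_3-IAA and 1260 to 1751 TPM in PA_DMSO, with 2 of 6 tested markers higher and 1 lower. Without any single library other than PA_DMSO replicate 3, 1 of these was higher. Without PA_DMSO replicate 3 or any single PA_3-IAA library, 2 were lower. Most of the difference in this sum came from ACTA2, with a mean of 1376 TPM in PA_3-IAA and 590 TPM in PA_DMSO. DES was also higher, PDGFRB fell 1.73-fold, and the collagens COL1A1, COL1A2 and COL3A1 were not called (markers named after their values were seen). Cholangiocyte markers summed to 140 to 165 TPM in PA_3-IAA and 120 to 130 TPM in PA_DMSO, with 1 of 5 higher and 1 lower. Adipocyte markers, another tissue with much PDK4, summed to 1.04 to 1.51 TPM in PA_3-IAA and 1.34 to 2.17 TPM in PA_DMSO, with 1 of 2 tested markers lower (0 without PA_DMSO replicate 1, and 2 without PA_DMSO replicate 3 or PA_3-IAA replicate 2). The part of these cells in the changes of pyruvate dehydrogenase transcripts was not tested.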

How the data were processed

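Polyadenylated RNA of 6 libraries was sequenced, 3 per group. Tools listed in the submitters' processing notes, with no roles, are RSEM, DESeq2, HISAT2 2.2.1 and cutadapt 1.9. The genome build, annotation and use of strand are not given in the sources used here, so no coordinates or sequences are printed. The authors deposited expected counts (estimated reads per locus) and TPM per library, with group means and a length in bases (lengths served 1 alternative, and the means were not used). The authors' deposited comparison holds a base mean signal, a log2 fold change, its standard error, a Wald score and p-values before and after adjustment. The table came with 2 emptied lines, not analysed here.

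After rounding of the expected counts, the main test was the robust quasi-likelihood test of edgeR 4.0.16 in R 4.3.3, two-sided, with filterByExpr and TMM scaling, and with Benjamini-Hochberg adjustment over 15576 genes. The SE was derived from the log2 fold change and its F statistic (absolute change over root F). Fold changes are fitted, PA_3-IAA over PA_DMSO, and CPM use TMM library sizes. A count of 3 corresponds to 0.128 to 0.188 CPM on this scale, which covers counting error only. Levels are the authors' TPM. Replicates of a group differed by more than sampling noise (mean chi-square per gene of 2.87 or more, where 1 is the noise alone).

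Members and lists were chosen with earlier results of these data known. The named genes are the 10 members, DLD, PDPR, MPC1, MPC2, LDHA, PC, SIRT3, PPARA, PPARGC1A and FOXO1, up to 3 further genes of each list by unadjusted p, and the 5 genes nearest to PDK4 (log2 of CPM with 0.5 added). Of the list genes PPARG, ACOT1 and ADIPOQ matched no row. Some genes that the rule takes, and 1 list, are not reported here. Alternatives were DESeq2 1.42.0, limma 3.58.1 (voom, and log2 TPM with a pseudocount of 1 or 0.1), no filter, scaling by library total or by RLE, a strict filter (all 6 libraries at 1 CPM or more), a block for the replicate number, leaving out single libraries and, for TPM ratios, counts per deposited length. The ratios of PDHA1 to PDHB and of PDHX to DLAT were added after seeing the data.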

Additional observations from a re-analysis of the deposited data

How the results depend on the processing

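The 4 members called lower and the 3 called higher kept their calls and directions under the 15 alternatives, except that PDHX missed the threshold with no filter on low counts (log2 0.79, adjusted p = 0.0742). Its adjusted p was at most 0.0498 without any single library, close to the threshold. PDK3, not called under any alternative, changed sign to 0.024 and 0.025 on log2 TPM with a pseudocount of 1 and 0.1 and to 0.034 with scaling by library total, and ranged from -0.12 to 0.043 without single libraries, and the cause was not tested. LDHA ranged from -0.024 to 0.091 without single libraries. The difference in the kinase to phosphatase ratio was 0.50, and 0.38 with counts per deposited length. The numbers of all genes called stayed within 1.5 times of the main numbers under each alternative. Scaling by library total gave 4820 higher and 3315 lower and moved the median log2 fold change of all genes to 0.07. With the replicate number as a block 3722 were higher and 3767 lower, and the members' calls did not change. The deviations of same-numbered libraries correlated by 0.02 to 0.07, so the numbers were not taken as pairs, although each of the 6 libraries correlated best with its own number. PDK4 rests on 85 to 101 counts in PA_3-IAA, the fewest of the 10 members.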
